A study of Homo sapiens
Mus musculus with 2 samples.

Results

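EL4 cells, a mouse T lymphoma line, were examined in 2 single-cell libraries prepared by Drop-seq, in which droplets pair cells with barcoded beads and each captured mRNA molecule is counted through a unique molecular identifier (UMI). The loaded suspension held 4 lymphocyte lines in equal parts: EL4, the mouse B line IVA12, and the human T lines Jurkat and TALL-104. The libraries differed in the labels only by the loaded concentration, 150 cells per µl (the 150 library) or 300 cells per µl (the 300 library), and the labels name no treatment. EL4 is a cultured line, the labels name no separate cultures, and all 4 lines were loaded as 1 suspension. An EL4 cell was a barcode with at least 2000 UMIs, at least 90% of them on mouse genes, at least 2 UMIs over 5 T cell genes (the T sum: Cd3e, Cd3d, Cd3g, Lck and Lat), and a T sum above the sum over 5 B cell and plasma cell genes (the B sum: Mzb1, Pou2af1, Tnfrsf17, Derl3 and Jchain). B-like cells met the same limits with the sums exchanged. EL4 cells were thus chosen by their UMI counts of these 10 genes, their depth and their share of mouse UMIs. The rule found 43 EL4 cells in the 150 library and 340 in the 300 library, 383 of 6000 deposited barcodes in all, beside 30 and 235 B-like cells.

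A T cell recognises its target through a receptor whose antigen-binding chains cannot signal on their own. The CD3 chains, encoded by Cd3e, Cd3d and Cd3g, carry the signal across the membrane, the kinase Lck phosphorylates them, and the adaptor Lat gathers the enzymes that pass the signal on. The B list holds genes of antibody-producing cells: Jchain links the subunits of polymeric antibodies, Mzb1 is a chaperone of the endoplasmic reticulum that assists antibody assembly, Derl3 takes part in the removal of misfolded proteins there, Tnfrsf17 is a survival receptor of plasma cells, and Pou2af1 is a coactivator of octamer-binding transcription factors.

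EL4 cells made up a similar part of the mouse cells in both libraries. Of 73 mouse barcodes of at least 2000 UMIs in the 150 library, 58.9% were EL4 (exact binomial 95% interval 46.8 to 70.3), and of 576 in the 300 library, 59.0% were (54.9 to 63.1). No mouse barcode was left without a class in the 150 library (0 of 73), and 1 was in the 300 library, with 2684 UMIs. The libraries shared 1 barcode sequence, which was no EL4 or B-like cell. All intervals given here cover counting error only. With 1 library per concentration, the concentration and the library cannot be told apart, and differences between them have no replicate check and no test.

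EL4 cells were deeper in the 150 library. The number of UMIs per EL4 cell ran from 2540 over a median of 12428 to 46091 in the 150 library, and from 2024 over a median of 8174 to 32576 in the 300 library. The median number of genes per EL4 cell was 3584 and 3128. In all, the EL4 cells held 593361 and 3124868 UMIs over 10255 and 12307 mouse genes. The 10 genes with the most UMIs took 5.88% and 6.72% of the mouse UMIs of EL4, and 50% of these UMIs were reached with 422 and 516 genes. At least 90% of the EL4 cells had a UMI of 728 genes in the 150 library and of 408 genes in the 300 library, the library with the shallower cells.

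The T sum chose the cells, and its values are therefore given as a description. It ran from 7 over a median of 21 to 62 UMIs per EL4 cell in the 150 library, and from 3 over a median of 16.5 to 62 in the 300 library. The B sum of EL4 cells was 0 in 15 of 43 and 104 of 340 cells, and its maximum was 5 and 11 UMIs. Close to the limits of the rule, 12 EL4 cells in the 300 library had a T sum of 5 or less, the smallest margin of the T sum over the B sum was 1 UMI, and 13 cells had a T sum below 3 times their B sum. In the 150 library, the smallest margin was 6 UMIs. The deepest barcodes that failed only on depth had 1576 UMIs with a T sum of 3 and 1958 UMIs with a T sum of 5. The share of mouse UMIs in an EL4 cell was at least 98.7% and 94.0%.

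**Figure D1:**
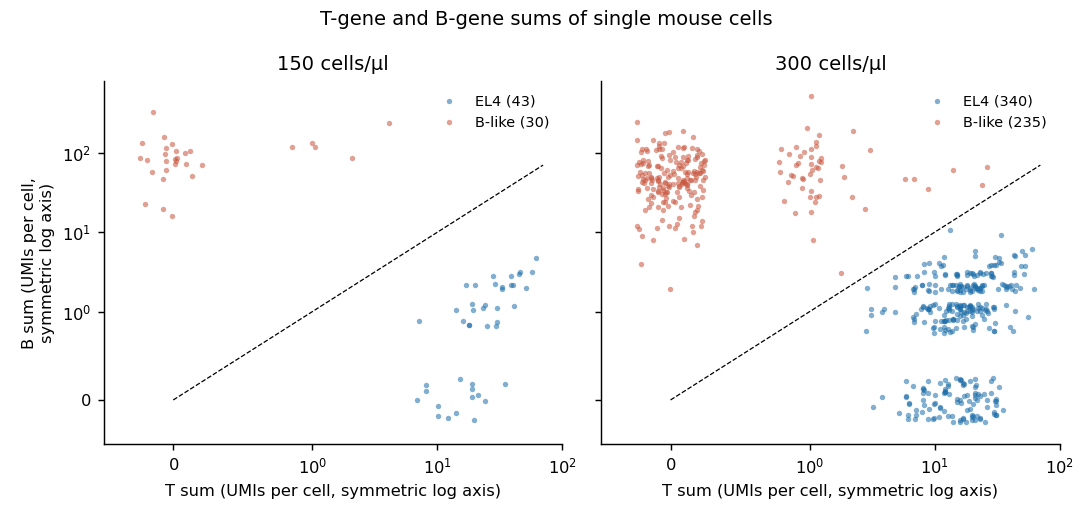
Each point is 1 mouse cell, with the T sum on the horizontal axis and the B sum on the vertical axis (UMIs, symmetric log axes, points jittered), for the 150 and 300 libraries. The dashed line marks equal sums; the 43 and 340 EL4 cells lie below it and the 30 and 235 B-like cells above it, with few points close to it.

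Most EL4 cells had UMIs of several T genes at once. In the 150 library, 19 cells had UMIs of all 5 T genes, 19 of 4 and 5 of 3. In the 300 library, 122 cells had all 5, 157 had 4, 49 had 3, 10 had 2 and 2 had 1. The summed T genes reached 1849 and 2044 CPM (UMIs scaled to a common total of mouse UMIs) in EL4, against 19.8 and 62.9 CPM in B-like cells.

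The CD3 chains differed in how many EL4 cells showed them. Cd3d had 626 CPM in the 150 library (exact Poisson 95% interval 564 to 693) and 663 CPM in the 300 library (635 to 692), and was seen in 100% and 97.4% of EL4 cells. Cd3g had 303 and 290 CPM and was seen in 97.7% and 86.2% of them. Cd3e had 47.4 and 66.5 CPM and was seen in 48.8% and 45.3%. If every EL4 cell held Cd3e at the mean level of its library, a UMI would be expected in 44.6% and 43.0% of cells at their depths, so the cells without a Cd3e UMI were no more frequent than the depth gives. Since each molecule is counted at 1 end, these levels are not scaled by transcript length.

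The signalling genes behind the receptor were seen in most EL4 cells too. Lck had 237 CPM (199 to 280) and 249 CPM (232 to 268) and was seen in 86.0% and 85.9% of cells, where the depth gives 89.8% and 83.3%. Lat had 636 CPM (574 to 704) and 775 CPM (744 to 806) and was seen in 100% and 99.1% of cells. In B-like cells, which had medians of 14590.5 and 8427 UMIs, a Lat UMI was found in 0 of 30 cells in the 150 library and in 12.3% of cells in the 300 library, and an Lck UMI in 3.33% and 6.81%. For the count of 0 of Lat, the limit of 3 UMIs is 6.61 CPM.

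The B genes split into a group near 0 and a group with UMIs in EL4 cells. Tnfrsf17 had 0 UMIs in EL4 in both libraries, where 3 UMIs, taken as the limit that a count of 0 allows, would be 5.08 and 0.964 CPM, and Derl3 had 1 UMI in each. Both were also low in B-like cells, with Tnfrsf17 at 4.41 and 4.87 CPM and Derl3 at 6.61 and 3.10 CPM. Jchain had 22.0 CPM (11.7 to 37.6) and 50.2 CPM (42.6 to 58.7) in EL4, against 4684 and 4104 CPM in B-like cells. Mzb1 had 5.08 CPM (1.05 to 14.8) and 18.0 CPM (13.6 to 23.4) in EL4, against 1391 and 1507 CPM. Pou2af1 had 55.8 CPM (38.4 to 78.4) and 81.0 CPM (71.3 to 91.7) in EL4, against 410 and 714 CPM.

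**Figure D2:**
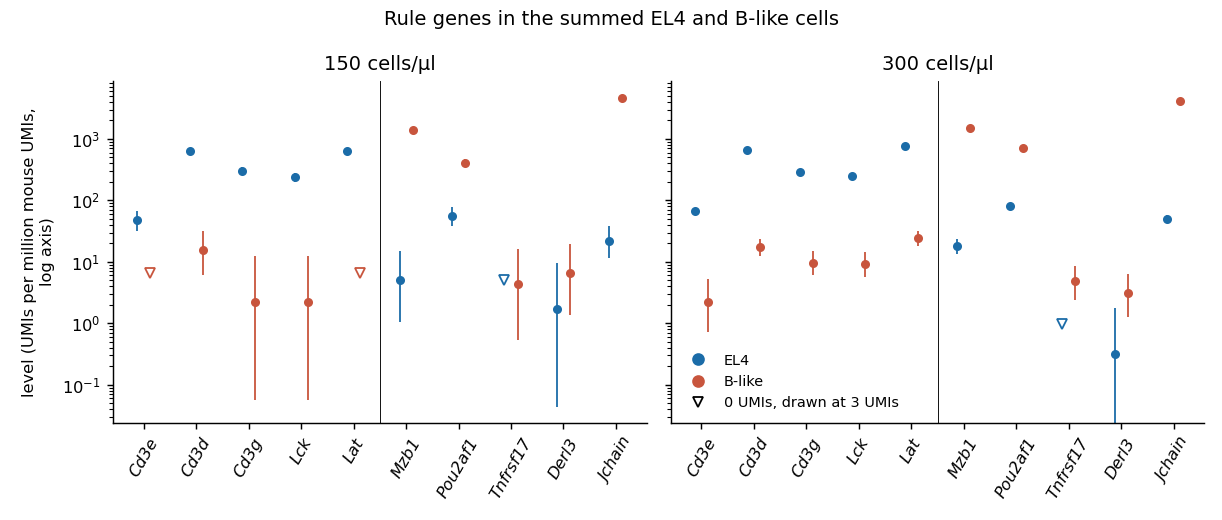
Levels of the 10 rule genes (CPM of mouse UMIs, log axis) in the summed EL4 and B-like cells of each library, with exact Poisson 95% intervals as bars and open triangles at the level of 3 UMIs where none was counted. The T genes lie higher in EL4 and Jchain, Mzb1 and Pou2af1 lower, and among the B genes Pou2af1 is the one with the most UMIs in EL4, 33 and 252.

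Pou2af1 stood apart from Jchain and Mzb1 in EL4. For each 100 Jchain UMIs, EL4 cells held 254 Pou2af1 UMIs (130 to 526) in the 150 library and 162 (132 to 199) in the 300 library. B-like cells held 8.75 (7.49 to 10.2) and 17.4 (16.5 to 18.4), and barcodes of 200 to 600 UMIs, which lie below the depth limit and may hold free RNA of all lines, held 17.7 (14.4 to 21.6) and 23.4 (20.8 to 26.3). These 3 genes are part of the rule, so the values describe the chosen cells. For Mzb1 the sets lay closer: EL4 held 23.1 (4.22 to 83.98) and 35.9 (26.0 to 49.0) Mzb1 UMIs per 100 Jchain UMIs, B-like cells held 29.7 and 36.7, and the barcodes of 200 to 600 UMIs held 25.6 and 33.0. The Pou2af1 ratio of the 300 library depended on the rule. With Jchain left out of it, 2 cells with 73 Jchain UMIs joined the EL4 cells and the ratio was 115 (96.2 to 138), against 17.4 in B-like cells chosen the same way. With Jchain and Mzb1 left out, 5 cells joined and it was 95.2 (80.9 to 112), against 18.1. In the 150 library no EL4 cell was lost or gained by either change.

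Human cells of the same libraries showed mouse UMIs in cells that cannot express a mouse gene. The limit on their share of human UMIs caps their mouse UMIs, and they were shallower than EL4 cells. Their values are therefore no exact level of foreign mouse RNA in EL4 cells. In the 82 and 282 barcodes with at least 2000 UMIs of which at least 90% were human (medians 6411 and 3952 UMIs), mouse Jchain was seen in 20.7% (12.6 to 31.1) and 27.7% (22.5 to 33.3), against 27.9% (15.3 to 43.7) and 33.8% (28.8 to 39.1) of the deeper EL4 cells. Mouse Mzb1 was seen in 2.44% and 11.7% of human barcodes, against 6.98% and 14.1% of EL4 cells. The part of free RNA in these UMIs of EL4 cells was not tested. Mouse Pou2af1 was seen in 4.88% (1.35 to 12.0) and 3.90% (1.96 to 6.87) of human barcodes, against 46.5% (31.2 to 62.4) and 50.9% (45.4 to 56.3) of EL4 cells. The mean number of Pou2af1 UMIs was 0.0488 and 0.0390 per human barcode and 0.767 and 0.741 per EL4 cell.

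The Pou2af1 UMIs were spread over the EL4 cells. At most 5 and 4 fell in 1 cell, and the shares of cells with a UMI lay close to the 49.7% and 49.0% that an even level would give at these depths. Among EL4 cells with no Jchain or Mzb1 UMI, 13 of 29 and 100 of 204 had a Pou2af1 UMI, or 44.8% (26.5 to 64.3) and 49.0% (42.0 to 56.1). In these cells Pou2af1 had 62.7 and 81.0 CPM, close to its level over all EL4 cells. The rule bears on these values, since UMIs of Pou2af1, Jchain and Mzb1 all count against membership.

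**Figure D3:**
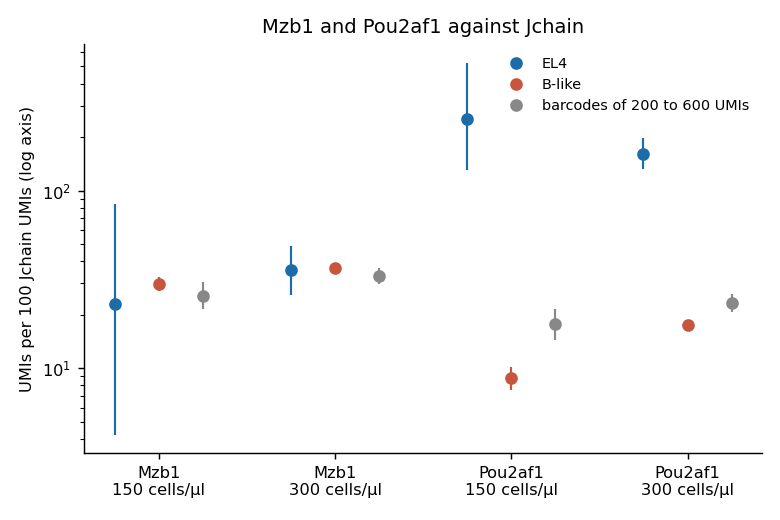
UMIs of Mzb1 and Pou2af1 per 100 Jchain UMIs (log axis) in EL4 cells, B-like cells and barcodes of 200 to 600 UMIs of each library, with exact 95% intervals from the counts as bars. The Mzb1 ratios lie between 23.1 and 36.7 in the 3 sets, and the Pou2af1 ratios of EL4, 254 and 162, lie above all others.

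Few T gene UMIs were found in B-like cells, and those in the 300 library were concentrated. In the 150 library the 30 B-like cells held 9 T gene UMIs. In the 300 library the 235 B-like cells held 142, of which 86, or 60.6%, were in 6 cells with a T sum of at least 5. Without those 6 cells the T genes of the B-like cells had 25.9 CPM instead of 62.9. In the 300 library the 5 T genes shared the T gene UMIs of B-like cells about as in EL4. Lat made up 37.9% of the T sum in EL4 and Cd3d 32.4%, against 38.7% (30.7 to 47.3) and 27.5% (20.3 to 35.6) in B-like cells. In the 150 library, with 9 UMIs, the shares differed. Cd3d made up 77.8% (40.0 to 97.2) and Lat 0% in B-like cells, against 33.9% and 34.4% in EL4. No doublet caller was run, and the part of doublets in the 6 cells was not tested.

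Shallow EL4 cells held a larger share of foreign UMIs than deep ones. Human UMIs were 0.386% and 0.394% of the UMIs of the median EL4 cell, and at most 1.26% and 6.03%. The EL4 cells of each library were split by depth into 3 groups of about equal size. From the shallowest over the middle to the deepest group of the 300 library, human UMIs made up 0.642%, 0.5001% and 0.370%, and Jchain had 73.1, 60.4 and 37.0 CPM. In the 150 library human UMIs made up 0.537%, 0.355% and 0.355%, and Jchain, with 13 UMIs in all, had 19.2, 28.5 and 19.2 CPM. The summed T genes had 2169, 2075 and 1985 CPM in the groups of the 300 library and 2059, 1861 and 1773 CPM in the 150 library. The rule bears on these values, since it asks a fixed number of T UMIs of each cell.

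To check the class of each cell on genes the rule did not use, every cell was correlated with the EL4 and B-like sums of the other library. All 43 EL4 cells in the 150 library were closer to the EL4 sum of the 300 library, with a median Pearson correlation of 0.760 to the EL4 sum and 0.658 to the B-like sum over 9638 genes. All 340 EL4 cells in the 300 library were closer to the EL4 sum of the other library, with medians of 0.704 and 0.551 over 6179 genes. Of the B-like cells, 0 of 30 and 3 of 235 were closer to the EL4 sum. These correlations are across genes within cells, which are not independent replicates.

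Each rule gene was then left out of the rule, the cells were chosen again without it, and the gene was compared between EL4 and B-like cells with the quasi-likelihood test of edgeR on 4 sums, 1 per library and class, with the library as a block and Benjamini-Hochberg adjustment over all genes tested. The other rule genes still chose the cells. The labels give both libraries the same mixture and name no separate cultures. With the library as a block, the p-values rest on how the class difference varied between these libraries, with the spread estimated over many genes together. That spread may be technical, and the p-values do not measure variation between cultures. All 5 T genes were higher in EL4 in each library, and the test over both libraries gave an adjusted p under 0.05 for each gene. The rule genes had been chosen with earlier results of these data known, so these p-values are no independent evidence for the classes. The log2 fold change was 5.08 for Cd3e (edgeR adjusted p 4.24e-34), 5.18 for Cd3d (7.86e-186), 4.86 for Cd3g (1.26e-103), 4.96 for Lck (7.48e-91) and 5.11 for Lat (2.77e-190). DESeq2 on the same sums gave larger adjusted p-values. They were 1.85e-05 for Cd3e, 2.28e-55 for Cd3d, 6.78e-15 for Cd3g and 5.64e-15 for Lck. For Lat the DESeq2 adjusted p was 0.033, with a log2 fold change of 7.59. Leaving out Lat moved the most cells, 11 of 340 in the 300 library, and leaving out Cd3e moved none of the 383. The size of the difference rested on the library for genes with few UMIs in B-like cells. Cd3g was 137-fold higher in EL4 (24.4 to 5457) in the 150 library, where B-like cells held 1 UMI, and 24.2-fold higher (16.5 to 36.9) in the 300 library. Lck was 107-fold higher (19.0 to 4274), also against 1 UMI, and 26.7-fold higher (17.4 to 43.4). For Lat, B-like cells held 0 UMIs in the 150 library, where EL4 was 96.2-fold higher against a level of 3 UMIs (exact lower limit 77.85). In the 300 library they held 63 UMIs, and EL4 was 27.8-fold higher (21.6 to 36.3).

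Among the B genes, Jchain, Mzb1 and Pou2af1 were lower in EL4 in the same test. As for the T genes, the other rule genes still chose the cells, and the p-values are no independent evidence for the classes. The log2 fold change was -6.14 for Jchain, -6.55 for Mzb1 and -2.97 for Pou2af1 (edgeR adjusted p 1.44e-103), and the edgeR adjusted p of Jchain and Mzb1 was too small to be represented. The DESeq2 adjusted p was 7.63e-13 for Jchain, 9.87e-16 for Mzb1 and 3.25e-31 for Pou2af1. Chosen without it, EL4 cells had 55.8 and 87.3 CPM of Pou2af1, and B-like cells had 7.34 times (5.05 to 11.0) and 8.20 times (7.21 to 9.36) as much. For Jchain, B-like cells had 213 and 56.6 times the EL4 level, and for Mzb1 274 and 83.7 times. Tnfrsf17 and Derl3 had too few UMIs to be tested.

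Over all genes outside the rule, EL4 and B-like cells differed widely. Of 8881 mouse genes tested, 5026 had an adjusted p under 0.05 (56.6%), 2567 higher in EL4 (28.9%) and 2459 lower (27.7%). The median log2 fold change of these genes was 1.13 for those higher and -1.14 for those lower. Of the 5026 genes, 4938 had the same direction in both libraries. The test that called them used these libraries as its replicates, so this is no separate check. DESeq2 called 1876 of the 8881 genes, all of them among the 5026. At least 50 CPM in both libraries was reached by 3292 genes in EL4, of which 2354 were within 2-fold of B-like cells in both libraries. Another 496 of the 3292 were over 2-fold higher in EL4 in both libraries, 171 of these over 8-fold and 50 over 32-fold. Of 3249 such genes in B-like cells, 488 were over 2-fold, 132 over 8-fold and 78 over 32-fold above EL4.

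The deposited tables give genes by identifier and no table at hand paired mouse identifiers with symbols, so the genes at both ends of this list are given by identifier. They were chosen for the largest fold change among called genes with at least 50 CPM in the higher class. Their small p-values and low counts in the other class follow from this choice and only describe them. ENSMUSG00000022270 was seen in 51.2% and 39.7% of EL4 cells, at 54.1 and 62.0 CPM. In B-like cells it had 0 UMIs in the 150 library and 1 UMI in the 300 library (log2 fold change 7.11, edgeR adjusted p 7.85e-38). ENSMUSG00000030653 was seen in 62.8% and 36.8% of EL4 cells, at 66.0 and 56.6 CPM, with the same 0 and 1 UMIs in B-like cells (log2 fold change 7.05, edgeR adjusted p 7.43e-37). Neither gene was seen in more than 1 B-like cell.

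The genes most depleted in EL4, chosen in the same way, had no UMI there. ENSMUSG00000053158 had 0 UMIs in all 383 EL4 cells and 110 and 99.7 CPM in B-like cells, in 73.3% and 48.1% of which it was seen. Against a level of 3 UMIs per library, it was 21.7-fold and 103-fold lower in EL4 (edgeR adjusted p 3.50e-70). The exact lower limits of these folds from the counts were 17.0 and 83.3. ENSMUSG00000025574 had 0 UMIs in EL4 and 104 and 61.1 CPM in B-like cells (edgeR adjusted p 3.02e-50). Against the same level of 3 UMIs, this was 20.4-fold and 63.4-fold above EL4, with exact lower limits of 16.0 and 50.85. DESeq2 called neither gene.

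The EL4 profile of the 300 library was set beside that of the 150 library. Of 5408 genes with at least 100 EL4 UMIs over both libraries, 202 differed by more than 2-fold (3.74%), 158 higher in the 300 library (2.92%) and 44 lower (0.814%). The median log2 ratio was 0.14, and scaling by the trimmed mean of M values (TMM), which moved all ratios by 0.13, gave 178 genes, 100 higher and 78 lower, so that the higher share went from 78.2% to 56.2%. The limit of 100 UMIs is on the sum of both libraries, to which the 300 library gave more EL4 UMIs, and the direction depended on it. With at least 50 UMIs, 371 genes were higher in the 300 library and 69 lower. With at least 300 UMIs, 20 were higher and 27 lower. Of the 202 genes, 5 higher and 25 lower had a counting interval wholly beyond 2-fold. The same comparison in B-like cells found 232 of 4522 genes (5.13%).

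Of the T genes, Lat alone had a counting interval that excluded 0 between the libraries. The log2 ratio of EL4 in the 300 over the 150 library was 0.08 for Cd3d (-0.08 to 0.25), -0.06 for Cd3g (-0.30 to 0.18), 0.07 for Lck (-0.19 to 0.34) and 0.49 for Cd3e (-0.08 to 1.12), and these intervals included 0. For Lat it was 0.28 (0.13 to 0.45), and 0.16 (0.0018 to 0.32) after TMM scaling. Pou2af1 had 0.54 (0.01 to 1.11), and 0.41 (-0.12 to 0.98) after TMM scaling, which includes 0. Its log2 ratio in B-like cells was 0.80 (0.58 to 1.03). Jchain and Mzb1 in EL4 had log2 ratios of 1.19 (0.37 to 2.13) and 1.83 (0.21 to 4.15), the latter from 3 and 56 UMIs.

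Genes far from equal were found in both directions. ENSMUSG00000041872 had 6.77 CPM in the 150 and 40.5 CPM in the 300 library in EL4, from only 4 UMIs and from 126 UMIs. Its log2 ratio was 2.58 (1.19 to 4.48), and it had 0 and 2 UMIs in B-like cells. ENSMUSG00000033685 had 10.2 and 57.5 CPM, from 6 and 179 UMIs, a log2 ratio of 2.50 (1.35 to 3.97), with 1.26 (0.61 to 1.98) in B-like cells. In the other direction, ENSMUSG00000038717 had 124 and 25.4 CPM, a log2 ratio of -2.28 (-2.76 to -1.80), with -1.75 in B-like cells. ENSMUSG00000045996 had 161 and 38.9 CPM, a log2 ratio of -2.05 (-2.45 to -1.64), with -1.75 in B-like cells as well. Both genes that were lower in the 300 library in EL4 were lower there in B-like cells too.

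**Figure D4:**
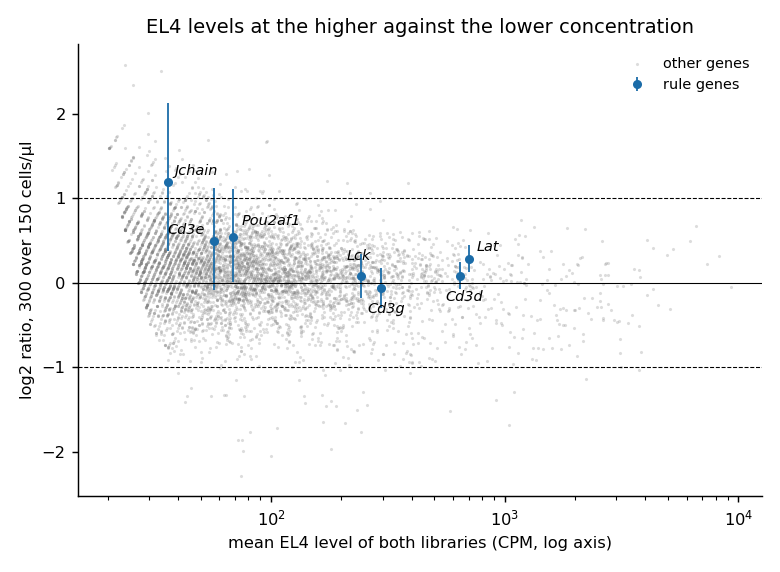
Each grey point is 1 of the genes with at least 100 EL4 UMIs, placed by its mean EL4 level (CPM, log axis) and its log2 ratio of the 300 over the 150 library, with 2-fold as dashed lines. Rule genes with at least 100 UMIs are blue with exact 95% intervals, and all but Jchain lie within 2-fold.

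Variation among EL4 cells was measured after each cell was thinned to 2000 UMIs, as the variance of a gene over its mean (Fano factor), which is 1 for counts that differ by sampling alone. Over 1685 genes with a mean of at least 0.2 UMIs per cell in both libraries, the median was 1.03 in the 150 and 1.06 in the 300 library. It exceeded 1.5 for 118 and 55 genes, of which 28 were the same. Of the 50 genes with the highest value in each library, 20 were shared (40.0%).

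Of the T genes, which chose the cells, 4 passed this limit on the mean. In the 300 library Cd3g, Lck and Cd3d lay close to 1, and Lat lay higher, at 1.17 against the median of 1.06. Cd3g had Fano factors of 1.00 and 1.04, Lck of 1.03 and 1.07, Lat of 0.77 and 1.17, and Cd3d of 1.54 and 1.03. The value of Cd3d in the 150 library was not found in the 300 library, where there were 340 cells instead of 43. After thinning to 4000 UMIs it was 1.26 and 1.13, while Lck had 1.69 and 1.08 and Lat 1.00 and 1.37. The highest value in the 300 library, 5.05, was that of ENSMUSG00000024661, with 1 to 61 UMIs per thinned EL4 cell around a median of 16, and 2.77 in the 150 library. The highest value in the 150 library, 28.8, was that of ENSMUSG00000092341, where 1 cell had 95 UMIs and the next 38 around a median of 5. Without that cell its value was 6.99, and in the 300 library it was 3.81. Both identifiers were chosen after their values were seen.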

How the data were processed

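The authors deposited 1 table of raw UMI counts per Drop-seq library, with barcodes in columns and genes as prefixed Ensembl identifiers. According to the methods and processing notes, reads were aligned with STAR 2.4.2a to hg19 and mm10 and counted with Drop-seq tools after downsampling. The labels do not say whether these counts come from the downsampled reads.

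The members and gene lists were chosen with earlier results of these data known. Identifiers of the 10 rule genes came with the rule. Longer gene lists had been planned but were not applied, because no table at hand pairs mouse identifiers with symbols. At most 2 identifiers per direction are named: called, the same sign in both libraries, at least 50 CPM in the higher class, largest fold change; between libraries, largest ratio with an interval beyond 2-fold.

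EL4 and B-like sums were tested without the rule genes by edgeR 4.0.16 (TMM, filterByExpr, library block, Benjamini-Hochberg at 0.05), with DESeq2 1.42.0 as alternative, in R 4.3.3. On simulated counts with 200 of 8881 genes changed 4-fold, the edgeR fit recovered 181 and made 3 false calls. The simulated spread was fixed and far fewer genes were changed than were called in the data, so this does not check the number called. The test of rule genes left out of the rule, the human barcodes and the Jchain ratios were added after the data were seen. For likeness, sums took genes with at least 20 UMIs, as log2(CPM + 10), and cells log2(UMIs per 10000 + 1). Intervals are exact, at 95%. For single genes a count of 0 is given the limit of 3 UMIs, but not in the numbers of genes over 2-fold, 8-fold and 32-fold.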

Additional observations from a re-analysis of the deposited data

Results flagged for a closer look

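Jchain moved in opposite directions in the mouse classes. In EL4 it was higher in the 300 than in the 150 library, with a log2 ratio of 1.19 (0.37 to 2.13) from 13 and 156 UMIs, and in B-like cells it was lower, with -0.19 (-0.26 to -0.12). Jchain UMIs count against EL4 membership, and the EL4 cells of the 150 library were deeper (median 12428 against 8174 UMIs). From the shallowest to the deepest EL4 cells, Jchain had 73.1, 60.4 and 37.0 CPM in the 300 library and 19.2, 28.5 and 19.2 CPM in the 150 library. With 1 library per concentration the difference was not tested, and neither was the part of depth in it.

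T gene UMIs were also found outside the cells analysed. In barcodes of 200 to 600 UMIs the 5 T genes had 1044 CPM of mouse UMIs (947 to 1147) in the 150 library and 838 CPM (776 to 905) in the 300 library, from 429 and 661 UMIs in 1669 and 2043 barcodes. This is above their 19.8 and 62.9 CPM in B-like cells and below their 1849 and 2044 CPM in EL4. Another 6 and 32 barcodes of at least 1000 but under 2000 UMIs met all other limits of the rule for EL4.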

How the results depend on the processing

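The number of EL4 cells ran from 314 with at least 5000 UMIs to 421 with at least 1000, against 383. Of the 8881 genes tested, DESeq2 called 1876 in place of 5026 (the cause was not tested), and thinning each cell to 2000 UMIs gave 1927 of 4885, where fewer genes were tested. Without the replicate block (the library left out of the model) edgeR called 3407, and without the filter 5508 of 14170, 43.5% of them higher in EL4 against 51.1%. In single libraries, 2887 to 3582 genes were beyond 2-fold, against 2896 in the fit of both. No paired analysis beyond this block was possible because each concentration had 1 library. Between concentrations, the number of EL4 genes beyond 2-fold was 202, but 101 after thinning, 440 with at least 50 UMIs and 47 with at least 300, settings that change the genes compared. The share of them higher in the 300 library was 78.2% of the 202, and 65.35%, 84.3% and 42.55% in these settings. Genes with a Fano factor over 1.5 in both libraries numbered 28, and 67 after thinning to 4000 UMIs, where 3103 genes passed the limit on the mean in place of 1685. Under the membership alternatives, chosen for this ratio after seeing the data, the Pou2af1 UMIs per 100 Jchain UMIs of EL4 lay between 236 and 254 in the 150 library and between 149 and 167 in the 300 library, but with Jchain and Mzb1 left out of the rule it was 95.2 in the 300 library. The 43 EL4 cells and 13 Jchain UMIs of the 150 library limit what can be told of low genes there.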
